A study of Homo sapiens with 8 samples.

Results

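The kinases that take a cell through the G1 phase and the inhibitors that hold them back were followed in 8 expression arrays of K562 cells, 4 treated with estradiol and 4 with vehicle. Members were all probe sets, the groups of short probes that report a transcript on the array, whose platform annotation lists a single gene symbol equal to CDKN1A, CDKN1B, CDKN1C, CDKN2A, CDKN2B, CDKN2C, CDKN2D, CDK2, CDK4 or CDK6. The rule found 25 of the 54675 probe sets, for 9 of the 10 genes, out of 19775 genes compared. CDKN2C had no probe set under the rule and was not analysed here.

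K562 is an established human line grown from chronic myeloid leukaemia cells. All cells stably carried p42-C/EBPa-ER, the full-length myeloid transcription factor C/EBPα fused to the oestrogen receptor, and grew in phenol red-free RPMI with 10% charcoal-stripped serum. The tested cultures received 1 µM beta-estradiol for 6 h, which moves such a fusion into the nucleus, and the control cultures received the ethanol vehicle for 6 h. The titles call the 4 samples of each group biological replicates, and the sources used here do not say whether the line is 1 clone. Cells without the fusion were not analysed here, so estradiol acting through the fusion and estradiol acting otherwise cannot be told apart. In such bulk samples, fewer cells with a transcript and less of it per cell cannot be told apart either.

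Progress through G1 depends on CDK4 and CDK6, which pair with D-type cyclins, and on CDK2, which pairs with cyclins E and A. Together they phosphorylate the retinoblastoma protein and release E2F factors. The CIP/KIP inhibitors CDKN1A, CDKN1B and CDKN1C bind cyclin-CDK complexes broadly, while the INK4 inhibitors CDKN2A, CDKN2B, CDKN2C and CDKN2D bind CDK4 and CDK6. C/EBPα is known to slow division while myeloid cells mature, with described protein contacts to CDKN1A, CDK2, CDK4 and E2F, and K562 is known to lack the CDKN2A and CDKN2B genes. Proteins, kinase activity, cell cycle phase and the deletion were not measured here.

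The promoters of members that moved in opposite directions are shown so that they can be read beside the values, those of the 2 inhibitors with higher signal and those of the kinases CDK4 and CDK6 with lower signal; CDKN2D, also lower, is given by its matches. They are RefSeq sequences of build GRCh38.p14, from 250 bases before the start site to 50 bases from it on: CDKN1A on the plus strand at chr6:36678464-36678763, CDKN1B on the plus strand at chr12:12717118-12717417, CDK4 on the minus strand at chr12:57752261-57752560 and CDK6, at the more upstream of 2 listed starts, on the minus strand at chr7:92836524-92836823. Capitals mark the GC box GGGCGG and the E-box CACGTG, read on both strands.
CDKN1A: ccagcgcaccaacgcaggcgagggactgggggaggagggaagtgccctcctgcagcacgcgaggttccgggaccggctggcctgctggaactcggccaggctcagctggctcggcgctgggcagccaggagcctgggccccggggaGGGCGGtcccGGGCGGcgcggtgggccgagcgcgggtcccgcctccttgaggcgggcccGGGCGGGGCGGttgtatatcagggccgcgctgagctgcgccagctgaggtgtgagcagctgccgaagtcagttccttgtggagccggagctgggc
CDKN1B: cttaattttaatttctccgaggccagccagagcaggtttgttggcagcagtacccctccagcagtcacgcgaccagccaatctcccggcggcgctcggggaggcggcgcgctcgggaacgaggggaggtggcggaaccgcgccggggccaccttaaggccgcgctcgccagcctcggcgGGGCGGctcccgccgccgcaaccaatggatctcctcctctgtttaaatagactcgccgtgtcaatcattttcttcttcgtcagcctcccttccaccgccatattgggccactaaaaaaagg
CDK4: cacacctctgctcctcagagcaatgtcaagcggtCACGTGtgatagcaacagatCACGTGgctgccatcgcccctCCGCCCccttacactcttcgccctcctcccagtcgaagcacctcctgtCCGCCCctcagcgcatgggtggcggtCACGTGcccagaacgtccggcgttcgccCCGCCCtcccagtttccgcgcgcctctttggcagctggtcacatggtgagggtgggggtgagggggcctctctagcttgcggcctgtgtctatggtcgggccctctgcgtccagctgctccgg
CDK6: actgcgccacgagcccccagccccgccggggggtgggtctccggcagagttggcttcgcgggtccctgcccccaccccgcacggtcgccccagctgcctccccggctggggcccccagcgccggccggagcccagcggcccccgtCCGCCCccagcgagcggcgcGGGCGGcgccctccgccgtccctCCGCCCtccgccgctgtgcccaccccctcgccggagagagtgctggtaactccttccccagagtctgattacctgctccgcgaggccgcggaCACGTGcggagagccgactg

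GGGCGG is the core site of SP1-like factors, and CACGTG is the site that MYC and MAX can occupy. GGGCGG occurred 4 times in the CDKN1A window, of which 1 pair of matches overlaps, 1 time in that of CDKN1B and 3 times each in those of CDK4 and CDK6, and 45% of 35116 promoter windows of the same length hold it. CACGTG occurred 3 times in the CDK4 window, 1 time in that of CDK6 and 0 times in those of CDKN1A and CDKN1B, against 7.26% of all windows with at least 1. A C/EBP-like motif, TTNNGCAA, had no match in these 4 windows and is held by 10.5% of all. CCAAT matched 3 times in the CDKN1B window and in none of the other 3, and TATAAA matched in none of the 4. The CDKN2D window, on the minus strand at chr19:10568930-10569229, held GGGCGG 3 times, CCAAT 1 time and CACGTG 0 times, and the other CDK6 start, at chr7:92833910-92834209, held 0 matches of any of the 5 motifs. CDKN1C, the most lowered member, and CDK2 had no window in the promoter set used here. Among the lowered members with a window, CACGTG occurred for CDK4 and 1 CDK6 start and not for CDKN2D. These matches are letters in a window, and binding was not measured.

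Estradiol was followed by opposite changes within the CIP/KIP inhibitors. CDKN1A was 1.64-fold higher and CDKN1B 1.37-fold higher, while CDKN1C was 1.99-fold lower. Among the INK4 inhibitors CDKN2D was 1.28-fold lower and neither CDKN2A nor CDKN2B passed the test. Among the kinases CDK6 was 1.43-fold lower, CDK4 1.14-fold lower and CDK2 1.10-fold higher, the last by a margin that most other settings did not keep. In all, 7 of the 9 genes passed (limma, Benjamini-Hochberg adjusted p below 0.05 over all genes), 3 higher and 4 lower, where 17.9% of all genes passed, 8.29% higher and 9.60% lower. The median of the 9 log2 differences was −0.12, and that of all genes −0.03. No filter on dim genes was applied; with only the 9887 genes whose mean level lay above the median of all, 43.2% passed, and so did all 6 of the members left. The number of member genes called was 5 with median centring of each array, where 14.4% of all genes passed. It was 5 to 6 with 1 array left out, where 13.8% to 18% of all genes passed.

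**Figure D1:**
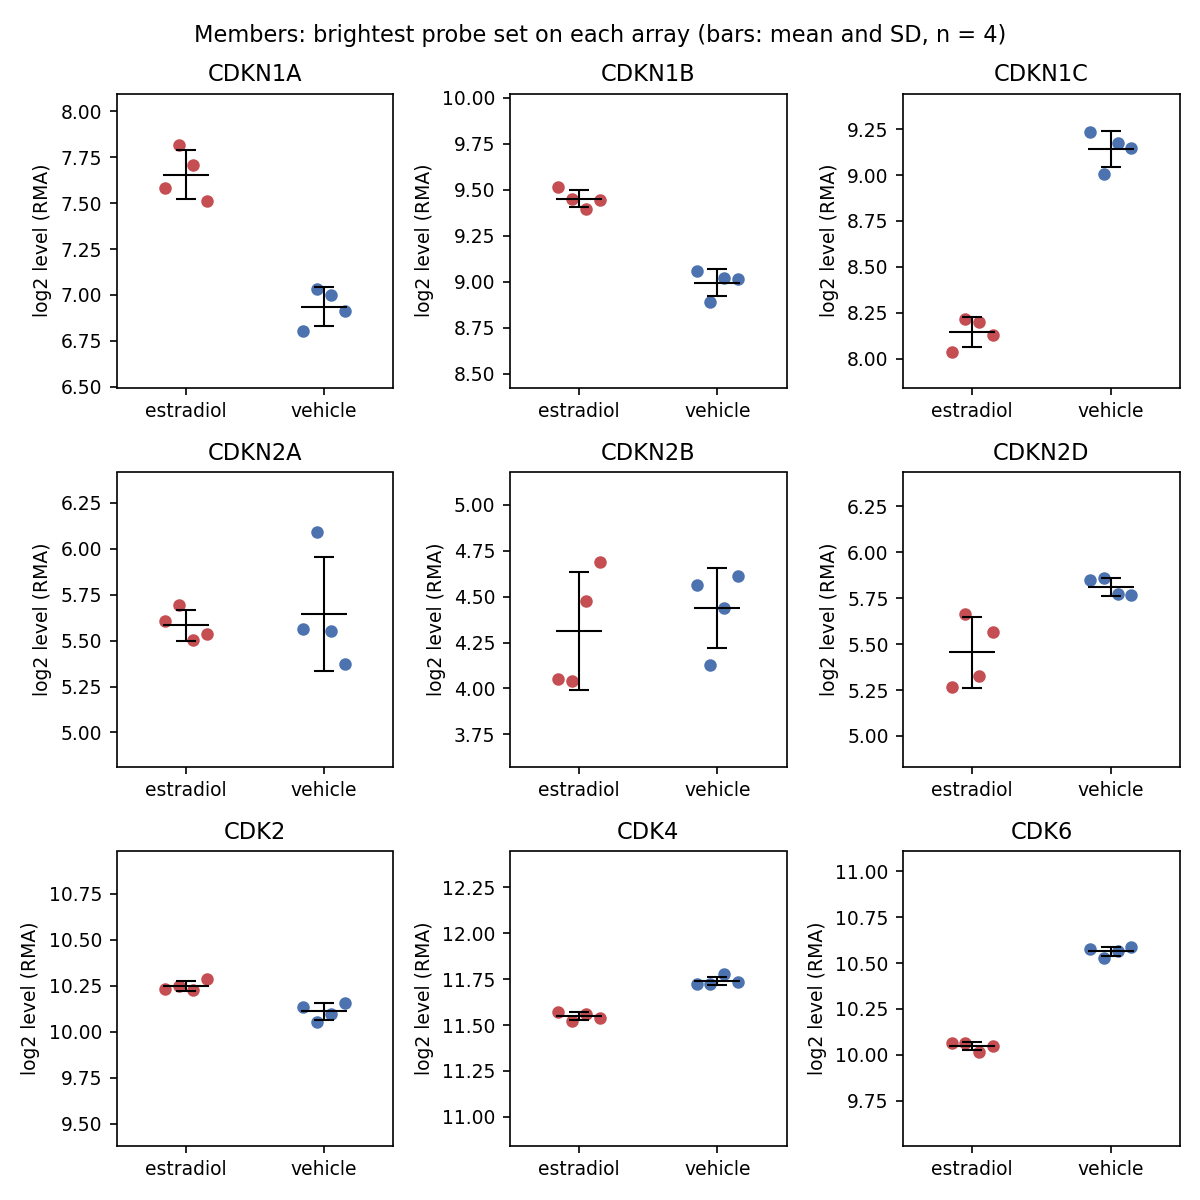
Log2 level (RMA) of the 9 measured genes at their brightest probe set, a point for each array, estradiol on the left and vehicle on the right of every panel, with mean and SD over 4 arrays. All panels span the same height on the log2 scale. The groups do not overlap in 7 panels, where this holds for 24.1% of all genes, and they overlap for CDKN2A and CDKN2B.

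CDKN1A, which blocks cyclin-CDK2 complexes and the replication clamp PCNA, had log2 levels of 7.58, 7.81, 7.71 and 7.51 on the 4 estradiol arrays, against 6.80, 7.03, 7.002 and 6.91 on the 4 vehicle arrays. Every estradiol array lay above every vehicle array, as for 24.1% of all genes whose groups did not overlap in either direction. The difference was 0.72 ± 0.08 (SE), with a 95% interval from 0.54 to 0.89 and an adjusted p of 0.000227. It ranked 279th among the rises of all genes and rested on the single CDKN1A probe set, 202284_s_at.

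CDKN1B, the inhibitor tied to quiescence and to the arrest of differentiating cells, was measured by a single probe set as well, 209112_at. Its log2 levels were 9.52, 9.45, 9.40 and 9.45 with estradiol, against 9.06, 8.89, 9.02 and 9.01 with vehicle. The estradiol arrays were all higher, and the difference was 0.46 ± 0.05 (SE, 95% interval 0.34 to 0.57, adjusted p = 0.00025). Both inhibitors kept their call under all 18 alternatives run, with differences from 0.66 to 0.77 for CDKN1A and from 0.42 to 0.49 for CDKN1B.

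CDKN1C, an imprinted inhibitor of the same family that restrains growth in embryonic tissue and blood stem cells, went the other way. At its brightest probe set, 213348_at, it had log2 levels of 8.04, 8.22, 8.20 and 8.13 with estradiol, against 9.23, 9.003, 9.17 and 9.15 with vehicle. All estradiol arrays were lower, by −0.99 ± 0.06 (SE, 95% interval −1.14 to −0.85, adjusted p = 8.3e-06), the 33rd largest fall of all genes. The call held under all 18 alternatives, with differences from −1.04 to −0.92.

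CDKN1C had 5 probe sets, and 4 of them were called lower in the fit over all 54675 probe sets, where 5.05% were called lower. The 3 others called carry the suffix _x_at, with which the array maker marks probe sets that may also pick up related sequences. At 219534_x_at the log2 levels were 6.95, 7.01, 6.95 and 6.98 with estradiol, against 8.20, 8.02, 8.04 and 8.17 with vehicle, a difference of −1.14 ± 0.06. At 213182_x_at and 216894_x_at the differences were −1.11 and −1.10, so that all 4 lay between 1.99-fold and 2.20-fold lower.

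The fifth CDKN1C probe set, 219533_at, stood at 4.41, 4.81, 4.58 and 4.71 with estradiol, against 4.85, 4.90, 5.01 and 4.72 with vehicle. The groups overlapped, the difference of −0.24 ± 0.09 did not pass (adjusted p = 0.168), and both group means, 4.63 and 4.87, lay below the array medians of 4.97 to 5.08. Its change differed from that of the brightest probe set by 0.75 ± 0.10 on the log2 scale (limma on within-array differences, adjusted p = 0.00299). It was the only one of the 16 further probe sets of these genes to differ, where 3.14% of 21322 such probe sets of all genes did. The part of its low level in that gap was not tested.

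**Figure D2:**
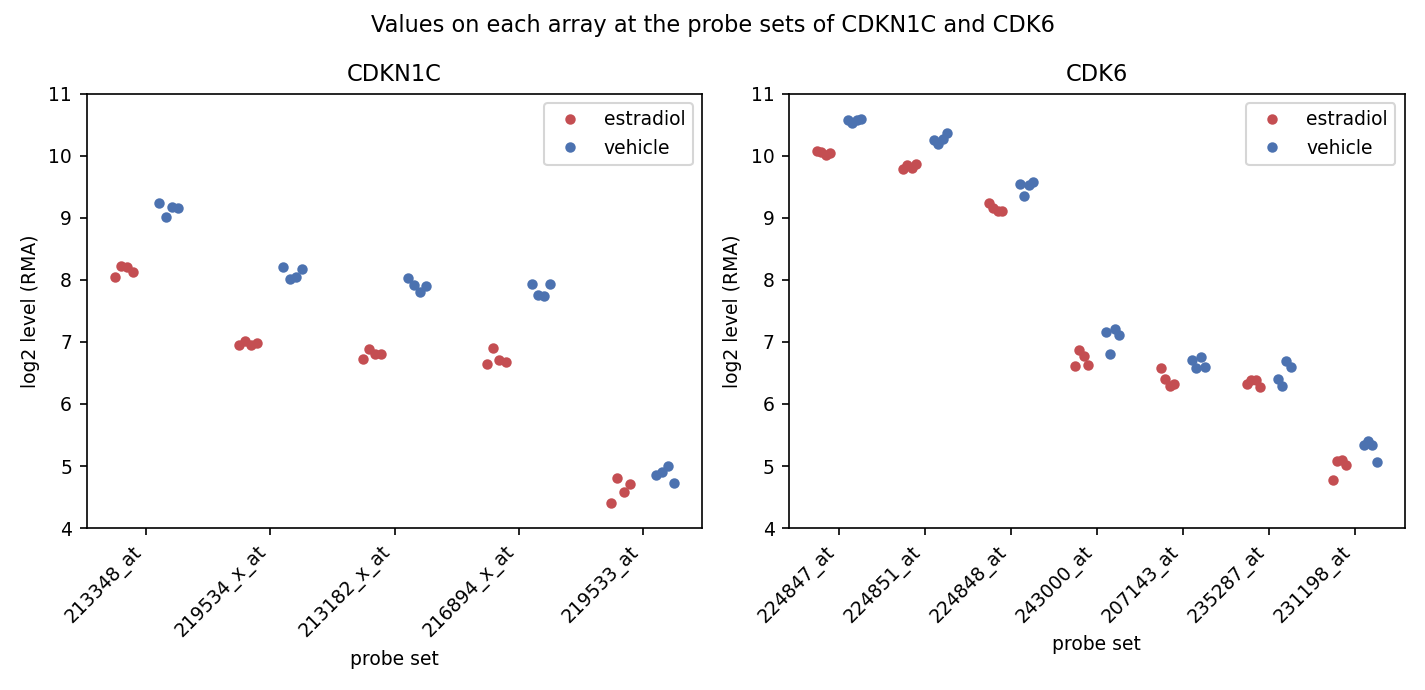
Log2 level (RMA) on each array at the 5 probe sets of CDKN1C and the 7 of CDK6, from the brightest on the left to the dimmest, with the 4 estradiol arrays left of the 4 vehicle arrays. The estradiol points sit below the vehicle points at the 4 brighter CDKN1C probe sets and the 3 brightest CDK6 probe sets, and the groups overlap at CDKN1C 219533_at.

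The INK4 inhibitors had levels below the upper quartiles of the arrays, 6.90 to 7.03 on the log2 scale. CDKN2D, which binds CDK4 and CDK6 and is known to vary through the cell cycle, had log2 levels of 5.26, 5.66, 5.32 and 5.57 at 210240_s_at with estradiol, against 5.85, 5.86, 5.77 and 5.77 with vehicle. The estradiol arrays were all lower and spread more (SD 0.19) than the vehicle arrays (SD 0.05). The difference was −0.36 ± 0.09 (SE, 95% interval −0.56 to −0.16, adjusted p = 0.0208). The call was lost when estradiol replicate 3, vehicle replicate 1 or vehicle replicate 2 was left out (differences of −0.35 to −0.31, adjusted p from 0.0502 to 0.0597) and with the mean of both its probe sets (−0.32). In the fit over all probe sets it passed at adjusted p = 0.0321, and no longer with the replicate block (adjusted p = 0.0644) or when any 1 array other than estradiol replicate 2 or 4 was left out (−0.37 to −0.29, adjusted p from 0.0655 to 0.0913). The other probe set, 213586_at, showed −0.27 ± 0.14 with overlapping groups (adjusted p = 0.325).

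CDKN2A, which encodes the INK4 inhibitor of that name and, in another reading frame, the protein ARF, had no call at any of 3 probe sets. Its brightest, 209644_x_at, stood at 5.61, 5.69, 5.50 and 5.53 with estradiol, against 5.56, 6.09, 5.55 and 5.37 with vehicle. The groups overlapped, vehicle replicate 2 was the highest array, and the difference was −0.06 ± 0.14 (95% interval −0.37 to 0.25, adjusted p = 0.832). The sign turned to 0.09 without vehicle replicate 2. At the other probe sets, 211156_at and 207039_at, mean levels over all arrays were 4.19 and 3.15 and the differences −0.07 and −0.01.

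CDKN2B, the neighbour of CDKN2A that TGF-beta signalling is known to induce, had log2 levels of 4.05, 4.04, 4.48 and 4.69 at 207530_s_at with estradiol, against 4.56, 4.13, 4.44 and 4.61 with vehicle. The arrays of both groups spread over the same range, and the difference was −0.12 ± 0.16 (95% interval −0.49 to 0.25, adjusted p = 0.705). At 236313_at the levels were 2.49 to 2.576 with estradiol and 2.585 to 2.75 with vehicle, without overlap. The difference of −0.13 ± 0.06 there did not pass (adjusted p = 0.221). Since no detection calls were used, none of the CDKN2A and CDKN2B levels was shown to lie above background.

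The kinases had levels above the upper quartiles of all arrays at their brightest probe sets, and their replicates lay close together there, with SDs of 0.02 to 0.05 against 0.05 to 0.32 for the inhibitors. CDK6, the D-cyclin partner that is prominent in blood progenitors, had log2 levels of 10.07, 10.06, 10.02 and 10.05 at 224847_at with estradiol, against 10.57, 10.53, 10.57 and 10.59 with vehicle. All estradiol arrays were lower, and the gap was −0.51 ± 0.04 (SE, 95% interval −0.60 to −0.43, adjusted p = 2.01e-05), the 272nd largest fall.

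All 7 CDK6 probe sets had a negative difference, from −0.51 to −0.15, and 4 of the 7 passed over all probe sets. The 3 brightest showed −0.51, −0.45 and −0.35 without overlap, and 243000_at showed −0.36 with overlapping groups (adjusted p = 0.0485). At 207143_at, 231198_at and 235287_at the differences were −0.26, −0.30 and −0.15 (adjusted p = 0.0589, 0.0888 and 0.387). The mean of the 7 moved by −0.34, a smaller fall that still passed (adjusted p = 0.000967). Leaving out replicate 1, 3 or 4 of either group ended the call at 243000_at (differences of −0.37 to −0.31, adjusted p from 0.0863 to 0.137), as did the replicate block (adjusted p = 0.141) and median centring (adjusted p = 0.0610).

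CDK4, the other D-cyclin partner and a known MYC target, was read by a single probe set, 202246_s_at. Its log2 levels were 11.57, 11.52, 11.56 and 11.54 with estradiol, against 11.73, 11.73, 11.78 and 11.73 with vehicle. The gap of −0.19 ± 0.04 was small and the groups did not overlap (SE, 95% interval −0.28 to −0.11, adjusted p = 0.00662). It no longer passed with median centring of each array (−0.17, adjusted p = 0.0741) or with a common median and spread (−0.16, adjusted p = 0.195). In the fit over all probe sets it passed at adjusted p = 0.0240, and no longer when estradiol replicate 2, 3 or 4 or vehicle replicate 3 or 4 was left out (−0.20 to −0.18, adjusted p from 0.0586 to 0.0787) or with the replicate block (adjusted p = 0.103).

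CDK2, the partner of cyclins E and A, had log2 levels of 10.23, 10.25, 10.23 and 10.29 at 204252_at with estradiol, against 10.14, 10.06, 10.10 and 10.16 with vehicle. The estradiol arrays were all higher, by 0.14 ± 0.04 (SE, 95% interval 0.04 to 0.23, adjusted p = 0.0483). The call was lost in each of the 8 fits without 1 array (0.12 to 0.15, adjusted p from 0.0580 to 0.142), with the replicate number as a block (adjusted p = 0.115), under all 3 other scalings, with the mean of its 3 probe sets (0.11, adjusted p = 0.142) and in the fit over all probe sets (adjusted p = 0.119). At 211804_s_at the difference was 0.17 ± 0.05 (adjusted p = 0.0752), without overlap between the groups, and at 211803_at it was 0.03 ± 0.09.

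**Figure D3:**
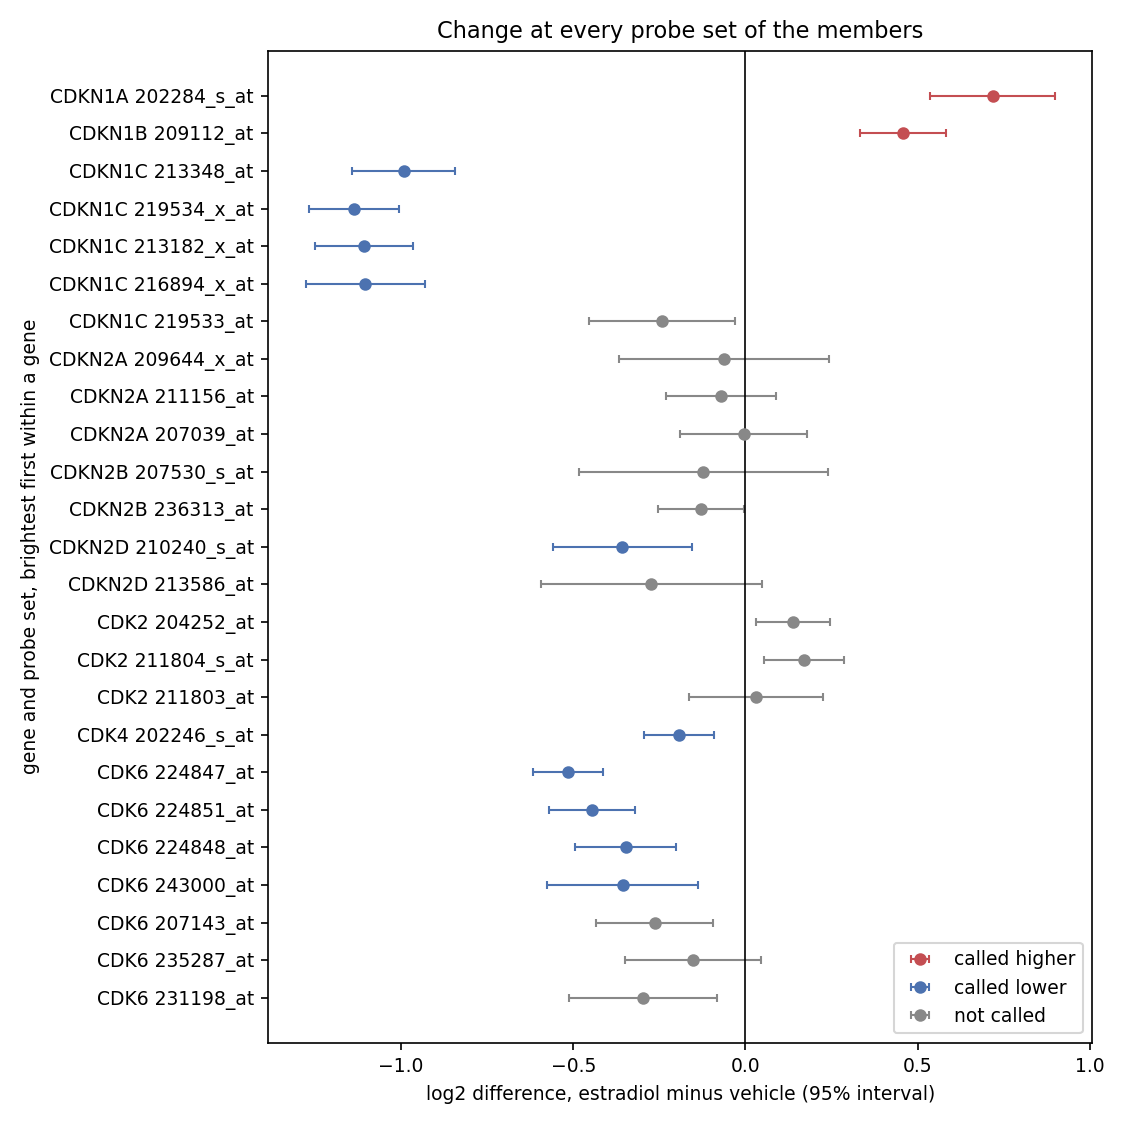
Log2 difference, estradiol minus vehicle, with its 95% interval (limma over all probe sets) at each of the 25 probe sets, grouped by gene. Of these, 2 were called higher (CDKN1A and CDKN1B), 10 were called lower (4 of CDKN1C, 4 of CDK6, 1 each of CDKN2D and CDK4) and 13 were not called, the 3 of CDK2 among them.

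Over all member probe sets, 12 of 25 were called, where 10.4% of the 54675 were. The estradiol and vehicle values did not overlap at 15 of the 25, where this held for 17.5%. These 15 include the dim CDKN2B probe set 236313_at, whose mean level over all arrays was 2.60. Across the 8 arrays the genes most like CDKN1A were NUCB1, SLC7A8, PTK2B, PTX3 and ILRUN, with Pearson r from 0.98 to 0.99. Those most like CDKN1C were PRR5, TBC1D4, IL15RA, MRAP2 and PODXL, with r from 0.997 to 0.999. These correlations describe patterns over arrays that share the same 2 groups, and 597 genes had r above 0.9 with CDKN1A and 1487 with CDKN1C.

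Other genes of the G1 machinery were read in 6 lists, chosen with earlier results of these data known. Of 64 listed genes 59 were measured, and 14 rose and 12 fell, 44.1% of them, where 17.9% of all genes passed. Their median difference was 0.04. Rises made up 53.8% of these calls, and 68.4% with a common median and spread, where they made up 46.3% and 55% of the calls among all genes. With only genes whose mean level lay above the median of all, 29 of 52 listed genes passed. That was 55.8% of them, where 43.2% of all such genes passed.

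The cyclins listed with G1, those of the D and E types and CCNA2 of the A type, are the partners that switch the kinases on. All passed, 4 higher and 2 lower (median 0.23), where 17.9% of all genes passed. The D-type cyclins, which pair with CDK4 and CDK6, split. CCND3 was 1.75-fold higher, at log2 levels of 12.57 ± 0.04 with estradiol and 11.76 ± 0.02 with vehicle (SD, n = 4 each, adjusted p = 1.97e-06). CCND2 was 1.36-fold lower, at 8.68 ± 0.07 and 9.13 ± 0.08 (adjusted p = 0.000474), and CCND1 1.23-fold lower, at 5.46 ± 0.15 and 5.76 ± 0.09 (adjusted p = 0.0315). The second CCND3 probe set showed 0.10, and averaging the probe sets of each gene gave 0.45 for CCND3, −0.48 for CCND1 and −0.19 for CCND2, which then did not pass (adjusted p = 0.0572). CCND1 lost its call when estradiol replicate 1, 2 or 4 or vehicle replicate 1, 2 or 3 was left out (−0.32 to −0.24, adjusted p from 0.0534 to 0.0892). Among the partners of CDK2, CCNE2 was 1.73-fold higher (adjusted p = 0.000186), and CCNE1 and CCNA2, named after their values were seen, rose by 0.20 and 0.26 on the log2 scale, the first not with the mean of its probe sets (0.05, adjusted p = 0.618).

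The pocket proteins are the substrates through which these kinases act on E2F. RB1 was 1.46-fold higher, at log2 levels of 8.55 ± 0.06 with estradiol and 8.003 ± 0.08 with vehicle (adjusted p = 0.000136), and RBL1 was 1.28-fold higher (adjusted p = 0.00146). The second RB1 probe set showed 0.22, and the 4 of RBL1 ran from −0.14 to 0.58. Averaging the probe sets of each gene gave 0.38 for RB1 and 0.29 for RBL1, and both still passed. RBL2 differed by 0.21 ± 0.08 (SE) without passing (adjusted p = 0.0956). Of 7 genes that activate CDKs, 2 rose and 5 were not called (median 0.08). The share called was 28.6%, where 17.9% of all genes and 43.2% of all genes above the median level passed. The 2 that rose were the phosphatases CDC25C, 1.37-fold higher, and CDC25A, 1.13-fold higher (adjusted p = 0.0280). The 3 CDC25C probe sets ran from −0.07 to 0.54, and their mean rose by 0.31 and still passed. The CDC25A call was lost without any 1 of the 4 estradiol arrays or vehicle replicate 4 (0.17 to 0.19, adjusted p from 0.0510 to 0.0807), with the replicate block (adjusted p = 0.0908) and under 2 other scalings, while the mean of its probe sets rose by 0.30.

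Of 12 genes of inhibitor turnover, 1 rose, 4 fell and 7 were not called (median −0.02). The share called was 41.7%, where 17.9% of all genes and 43.2% of all genes above the median level passed. UBAC1, a subunit of the KPC ubiquitin ligase that acts on CDKN1B in G1, was 1.61-fold lower, at log2 levels of 10.94 ± 0.02 with estradiol and 11.63 ± 0.04 with vehicle (adjusted p = 4.76e-06). SKP2, the F-box protein that marks CDKN1B for destruction in later phases, was 1.17-fold lower (adjusted p = 0.00504, or 0.0512 with median centring and 0.0909 with a common median and spread), and its 3 probe sets differed by −0.22 to −0.20. DTL, the receptor of the CUL4 ligase that removes CDKN1A during S phase, was 1.52-fold higher (adjusted p = 5.88e-05). The scaffold CUL4A was 1.18-fold lower (adjusted p = 0.00961, or 0.0651 with the mean of its probe sets and 0.052 with a common median and spread). The fourth fall, named after its value was seen, was that of the proteasome activator PSME3 (−0.17), lost when estradiol replicate 2 or 4 or vehicle replicate 3 or 4 was left out (−0.18 to −0.15, adjusted p from 0.0551 to 0.0718), with the replicate block (adjusted p = 0.0718), with the mean of its probe sets (adjusted p = 0.0576) and under 2 other scalings (adjusted p = 0.131 and 0.275).

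Among 17 regulators of inhibitor transcription 4 rose, 5 fell and 8 were not called (median 0.01). The share called was 52.9%, where 17.9% of all genes and 43.2% of all genes above the median level passed. MYC, a repressor of CDKN1A and an activator of CDK4, was 2.28-fold lower, at log2 levels of 10.91 ± 0.02 with estradiol and 12.10 ± 0.02 with vehicle (adjusted p = 1.69e-07). KLF6, a zinc finger activator of CDKN1A, was 2.37-fold higher, at 8.85 ± 0.03 and 7.60 ± 0.17 (adjusted p = 8.27e-06). SMAD3, which carries TGF-beta signals to CDKN2B and CDKN1A, was 1.76-fold higher, and FOXO3, an activator of CDKN1B, 1.44-fold higher. The 5 KLF6 probe sets ran from −0.04 to 1.39, the 4 of SMAD3 from 0.60 to 0.83 and the 4 of FOXO3 from 0.04 to 0.55. Averaging the probe sets of each gene gave 0.97 for KLF6, 0.74 for SMAD3 and 0.39 for FOXO3, and all still passed. In this list FOXO1 and FOXO4, of the same family as FOXO3 and named after their values were seen, fell by 0.41 and 0.34 on the log2 scale. Averaging its probe sets gave −0.25 for FOXO1, and FOXO4 lost its call without estradiol replicate 3 (−0.33, adjusted p = 0.0527) and with the replicate block (adjusted p = 0.0677). SMAD2 (−0.22, adjusted p = 0.00649) and MEN1 (−0.18, adjusted p = 0.0246) were lower. HES1 was higher (0.37, adjusted p = 0.0192), with probe sets from −0.17 to 0.37. SMAD2, MEN1 and HES1 were also named after their values were seen, and their calls were not followed singly under the alternatives. Roles are given for some of these regulators only, and whether any of them acted on the members was not tested.

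Of 14 other CDKs, 12 were not called, and the 14.3% called lay near the 17.9% of all genes (median 0.03). CDK1, the mitotic kinase, was 1.15-fold higher, at log2 levels of 11.62 ± 0.03 with estradiol and 11.42 ± 0.05 with vehicle (adjusted p = 0.00942, or 0.0564 with a common median and spread). CDK5, best known from neurons, was 1.11-fold lower (adjusted p = 0.0377). The CDK5 call was lost when any 1 array other than vehicle replicate 2 was left out (−0.16 to −0.13, adjusted p from 0.0611 to 0.110), with the replicate block (adjusted p = 0.0832) and under 2 other scalings (adjusted p of 0.233 and 0.307).

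**Figure D4:**
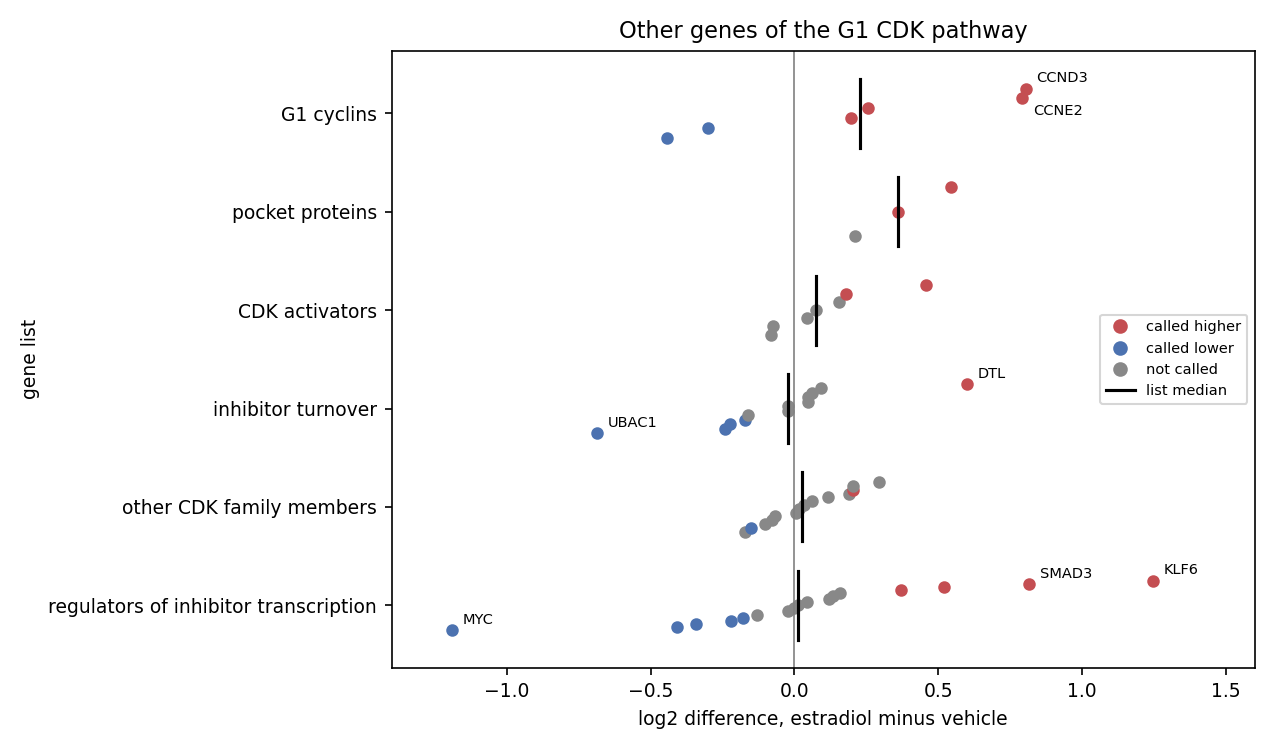
Log2 difference, estradiol minus vehicle, of the 59 measured pathway genes in 6 lists, a point for each gene coloured by its call (limma over all genes) and a bar at each list's median. Genes that moved at least 1.5-fold are labelled; CCND3, CCNE2, DTL, SMAD3 and KLF6 lie on the higher side and UBAC1 and MYC on the lower.

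Arrays had medians of 4.97 to 5.08 on the log2 scale, and no pair was identical. The erythroid and progenitor markers of K562 were present, 6 of 7 listed being measured with gene levels of 9.47 to 13.95, and their mean per array ran from 11.76 to 11.77 with estradiol and from 11.98 to 12.03 with vehicle. Of these 6, 3 were called, all lower: GATA1 (−0.89), LMO2 (−0.51) and HBE1 (−0.17), while HBZ (−0.04), TAL1 (0.08) and TFRC (0.08) were not called. Of 8 markers of T cells, B cells, fibroblasts and epithelium 7 were measured, with gene levels from 4.09 to 10.90, the highest being that of EPCAM. Their mean ran from 6.69 to 6.81 with estradiol and from 6.73 to 6.87 with vehicle, and 0 of the 7 were called. The part of the shift in erythroid markers in the differences above was not tested.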

How the data were processed

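The deposited values are log2 expression values for 8 arrays, made by the authors and deposited after RMA, as the submitters' processing notes name it; no version, chip definition or genome build is given in the sources used here. RMA corrects background and gives the probe intensities of all arrays a common distribution. These steps hide a shift common to most genes and shrink changes of dim ones. The deposited values of the arrays still differed in distribution, with medians of 4.97 to 5.08. Per the labels' protocols 200 ng of total RNA was amplified for each array. Precision is limited by the number of arrays.

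Of 54675 probe sets, 41097 had 1 symbol in the platform annotation, 1801 several and 11777 none listed, and 0 symbols changed when looked up in the RefSeq gene table. A gene was read at its brightest probe set, by mean level over the 8 arrays. Genes, all probe sets, and within-array differences of further probe sets from the brightest were each fitted in limma 3.58.1 under R 4.3.3 (lmFit, then eBayes without trend; no block; two-sided), estradiol minus vehicle, with Benjamini-Hochberg adjustment over all features and calls below 0.05. Fits were tested on simulated data. Errors of differences are moderated standard errors, and p-values rest on the spread among these arrays. Same-numbered replicates did not deviate together (correlations of −0.21 to 0.11), so numbers were not taken as pairs. Figures used matplotlib 3.10.9.

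The members and lists were chosen with earlier results of these data known. A further list of genes is not reported here. All members and probe sets are given; each list gives up to 4 called genes with the largest change, or the smallest p where none was called, plus MYC, and the 5 genes most like the most raised and most lowered member. CCNE1, CCNA2, PSME3, FOXO1, FOXO4, HES1, SMAD2 and MEN1 were added after their values were seen. Alternatives were a replicate block, 3 scalings, 2 filters on dim signal, the mean of probe sets, array weights, a robust fit with a variance trend, a stricter adjusted p and each array left out.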

Additional observations from a re-analysis of the deposited data

Results flagged for a closer look

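In 3 of 50 groups of 4 arrays, 1 array stood far from the other 3 at a member probe set; chance alone gives such a gap in about 1 of 20 groups. CDK4 read 11.78 in vehicle replicate 3, while the other vehicle arrays read 11.73. CDKN2A read 2.94 at 207039_at in estradiol replicate 1, while the other 3 read 3.20 to 3.24. At 211156_at CDKN2A read 4.32 in vehicle replicate 1, while the other 3 read 4.19 to 4.20.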

How the results depend on the processing

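CDKN1A, CDKN1B, CDKN1C and CDK6 kept direction and call under all 18 alternatives, while CDK2, CDKN2D and CDK4 lost their calls under 14, 5 and 2 of those run. Of 9 member genes 7 were called, and 5 to 7 under the alternatives (5 to 6 without 1 array). Of all genes 17.9% were called, and 11% to 43.2% under the alternatives. Of 25 member probe sets 12 were called, and 9 to 16 under the alternatives. The 16 were out of only 19 member probe sets left by the filter at the median level. That filter left 6 member genes. With the replicate block 6 member genes, 9 member probe sets, 21 pathway genes and 2598 genes in all were called, against 7, 12, 26 and 3538 without it. The labels do not say whether the replicate numbers pair the samples, and pairing was not excluded. At adjusted p below 0.01, 2179 genes in all were called. Probe sets that differed from the brightest numbered 2 in place of 1 with quantile normalization, and 1 to 2 without 1 array. Dim signal limits the INK4 inhibitors most. A member left out by a filter on dim signal has no value under it.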
